A study of Mus musculus with 8 samples.

Results

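Immune checkpoint ligands are molecules that tumor cells show to immune cells and that restrain them. A set of 10 such genes was chosen by name (*Cd274*, *Pdcd1lg2*, *Cd276*, *Vtcn1*, *Cd80*, *Cd47*, *Pvr*, *Lgals9*, *Nt5e* and *Entpd1*), and all 10 were found among the 39089 genes of the deposited tables, in all 8 libraries. The libraries are RNA-seq of cells sorted from subcutaneous Myc-CaP tumors, Myc-CaP being a prostate cancer line from mice with a *Myc* transgene. The cells carried either a control vector (Myc-CaP EV, called WT here) or a guide RNA against *Arid1a*, which encodes a component of the SWI/SNF chromatin remodelers (Myc-CaP Arid1a KO, called KO here). The design asks how *Arid1a* loss changes the tumor cells and which changes depend on NF-κB, whose p65 subunit is kept out of the nucleus by JSH-23.

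There were 4 groups of 2 libraries each. In all of them the hosts were male mice of the FVB strain, 6 weeks old at inoculation, and treatment began on day 16 and was given by gavage every day for 2 weeks. By the sample records, WT tumors with vehicle and KO tumors with vehicle received corn oil, whereas the study names the controls of these tumors by DMSO, and which was given was not settled. WT tumors with JSH-23 and KO tumors with JSH-23 received the compound dissolved in DMSO and diluted in corn oil. Tumor cells were gated as EpCAM-positive and CD45-negative. Which knockout line or clone was inoculated, and whether the libraries of a group came from separate tumors, is not given in the sources used here. The p-values therefore measure only the spread between these samples, which may be technical, and cannot be read as evidence across tumors. That spread was narrow. Beyond counting error, edgeR put it at 1.61% over all genes (its biological coefficient of variation). The 2 libraries of each group correlated at 0.999 across genes on log2 CPM. Whether separate tumors would vary so little was not tested.

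The ligands act on different receptors. PD-L1 (*Cd274*) and PD-L2 (*Pdcd1lg2*) engage PD-1 on T cells, CD80 engages CD28 and CTLA-4, and B7-H3 (*Cd276*) and B7-H4 (*Vtcn1*) are relatives of these proteins in the B7 family. CD47 is the "don't eat me" signal read by SIRPα on macrophages, CD155 (*Pvr*) is bound by TIGIT, CD96 and CD226 on T and NK cells, galectin-9 (*Lgals9*) binds TIM-3, and CD39 (*Entpd1*) and CD73 (*Nt5e*) act in turn to convert extracellular ATP into immunosuppressive adenosine.

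The total counts ranged from 16401581 to 21972231 per library, and a count of 3, taken as the lowest level told from 0, corresponded to between 0.137 and 0.183 CPM, which are counts brought to a common library size. Such limits cover counting error only. Levels between conditions are given as CPM after TMM scaling, a correction of the library sizes, and levels between genes as TPM, which divides by gene length. *Arid1a* was at 156 and 162 CPM in WT tumors with vehicle, 144 and 155 CPM in WT tumors with JSH-23, 103 and 106 CPM in KO tumors with vehicle, and 93.8 and 95.9 CPM in KO tumors with JSH-23. Every KO library was below every WT library, and transcripts of the gene were still present in the KO libraries.

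Of the 13921 genes that passed the filter on low counts, 723 would not have passed with the libraries of 1 particular group removed, a selection that can favour a difference of that group from others. Such genes are left out of the counts and medians of the marker and comparison lists, a choice made after the data had been seen, and the shares of all genes given beside these lists are over the other 13198. None of the 5 ligands that passed was among the 723. The gate was then compared with 13 epithelial and prostate markers. *Epcam*, the gene of the sorted surface protein, had 0 counts in 5 libraries and 1, 4 and 1 counts in WT vehicle replicate 2, KO vehicle replicate 2 and KO JSH-23 replicate 2. The transcript of the protein used for sorting was therefore at or near the floor in all 4 groups. E-cadherin (*Cdh1*) had between 1 and 19 counts, and *Krt5* and *Pbsn*, the latter a secretory product of prostate epithelium, had 3 counts or fewer in every library. In contrast, *Foxa1* was at 222, 200, 152 and 187 CPM (means of WT vehicle, WT JSH-23, KO vehicle and KO JSH-23), *Hoxb13* at 83.1, 71.4, 57.4 and 79.7 CPM, and the keratin genes *Krt8* at 55.4, 33.0, 112 and 100.3 CPM and *Krt19* at 38.9, 12.7, 103 and 81.3 CPM. The label of an epithelial cell was thus matched by *Foxa1*, *Hoxb13*, *Krt8* and *Krt19* and not by *Epcam*, and the libraries are called Myc-CaP tumor libraries here.

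Markers of lymphoid, dendritic and endothelial cells were low, and the fibroblast marker *Pdgfra* was not. Of 19 lymphoid markers, 16 had 3 counts or fewer in every library, among them *Cd3e*, *Cd4*, *Cd8a* and *Ncr1*, and the 2 that could be tested did not pass an adjusted p of 0.05 in any comparison. The most abundant was *Foxp3* (mean 3.38 CPM), and the sums per library were between 3.16 and 6.14 CPM. *Ptprc*, which encodes CD45, averaged 0.296, 0.279, 0.204 and 0.0780 CPM in WT vehicle, WT JSH-23, KO vehicle and KO JSH-23. The 20 myeloid markers summed to 35.9 and 38.8 CPM in WT vehicle, 31.1 and 18.1 CPM in WT JSH-23, 32.9 and 36.3 CPM in KO vehicle, and 19.8 and 17.7 CPM in KO JSH-23, with *Cd68* the most abundant (mean 9.45 CPM). The myeloid sum was thus lower with JSH-23 in both genotypes, and the WT JSH-23 libraries differed from each other. Only *Cd14*, *Cd68* and *Lyz2* passed the filter independently of any 1 group. At 1.5-fold, 1 of these 3 was higher (*Cd68*) and 1 lower (*Lyz2*) in KO than in WT tumors with vehicle, and JSH-23 lowered 2 in KO (*Cd14* and *Cd68*) and 1 in WT tumors (*Cd14*). Of all genes, 6.75% were higher and 4.92% lower in KO than in WT tumors with vehicle, and 15.6% were lowered by JSH-23 in KO and 9.76% in WT tumors. *Lyz2*, the lysozyme gene of macrophages and neutrophils, averaged 9.72, 7.89, 3.21 and 2.99 CPM in WT vehicle, WT JSH-23, KO vehicle and KO JSH-23, *Cd68* averaged 7.001, 5.20, 17.5 and 8.13 CPM, and *Cd14* averaged 11.1, 6.51, 11.9 and 6.26 CPM. These 3 genes therefore did not move together. Of the myeloid markers that needed 1 group to pass the filter, *Adgre1* had 17, 19, 17 and 1 counts in WT libraries (vehicle, then JSH-23). In KO libraries it had 0, 0, 0 and 2. *Mpeg1* had 40, 33, 36 and 7, then 6, 6, 4 and 7. *Csf1r*, *Itgam*, *Fcer1g*, *Laptm5* and *Mrc1* also had fewer counts in KO vehicle than in WT vehicle libraries. *Cx3cr1* had more (14 and 17 against 3 and 7). These genes were named after their values had been seen. The neutrophil genes *Ly6g*, *S100a8* and *S100a9* and the integrin gene *Itgax* were at 3 counts or fewer everywhere. Sums for 11 dendritic cell markers were between 2.22 and 4.80 CPM, led by *Cd74* (mean 1.31 CPM), which was lower in KO than in WT tumors with JSH-23 and lower with JSH-23 in KO tumors. The 11 endothelial markers summed to 2.08 and 4.24 CPM in WT vehicle, 3.07 and 2.68 CPM in WT JSH-23, 5.41 and 3.83 CPM in KO vehicle, and 3.84 and 2.25 CPM in KO JSH-23. Of these, *Emcn* was at 3 counts or fewer in every library, and the most abundant was *Vwf* (mean 0.999 CPM, named only because the count is small). *Vwf* had 3 and 19 counts in WT vehicle, 7 and 4 in WT JSH-23, 37 and 43 in KO vehicle, and 18 and 20 in KO JSH-23. It was highest in KO vehicle, with a log2 fold change of 1.66 against WT vehicle (adjusted p = 0.000851 by edgeR) and -1.09 with JSH-23 in KO tumors (adjusted p = 0.0110), and of 1.57 in KO against WT tumors with JSH-23 (adjusted p = 0.0164). The 12 fibroblast and pericyte markers summed to between 43.7 and 73.7 CPM, of which *Pdgfra* made up most (mean 52.5 CPM, within the range of the group means of *Krt8* and *Krt19*), with a mean of *Col1a1* no higher than 3.21 CPM in any group. Of 7 genes of this list, 1 was lower in KO than in WT tumors with vehicle (*Col1a1*) and 3 with JSH-23 (*Col1a1*, *Col1a2* and *Col3a1*), where 4.92% and 4.8% of all genes were lower. JSH-23 lowered 1 in KO tumors (*Pdgfra*; 15.6% of all genes) and raised 1 in WT tumors (*Col3a1*; 5.58%), the latter by a log2 fold change of 1.35 (adjusted p = 0.000574).

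A total of 5 ligands passed the filter on low counts (*Cd274*, *Cd47*, *Pvr*, *Lgals9* and *Nt5e*) and 5 did not. By TPM over the 8 libraries, *Lgals9* had the highest level (86.4 ± 17.6, SD), followed by *Cd47* (55.9 ± 2.99), *Pvr* (34.3 ± 9.08), *Nt5e* (9.81 ± 1.39) and *Cd274* (1.96 ± 0.791). This order held in each of the 8 libraries, so that PD-L1 had the lowest transcript level of the 5 ligands that passed the filter in all conditions. Below them were *Vtcn1* (0.124 ± 0.0688 TPM), *Entpd1* (0.0844 ± 0.0480), *Cd80* (0.0351 ± 0.0473) and *Cd276* (0.0268 ± 0.0320). These neighbours were not separated beyond their spread, since *Entpd1* was at or above *Vtcn1* in 3 libraries and *Cd276* at or above *Cd80* in 5.

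**Figure D1:**
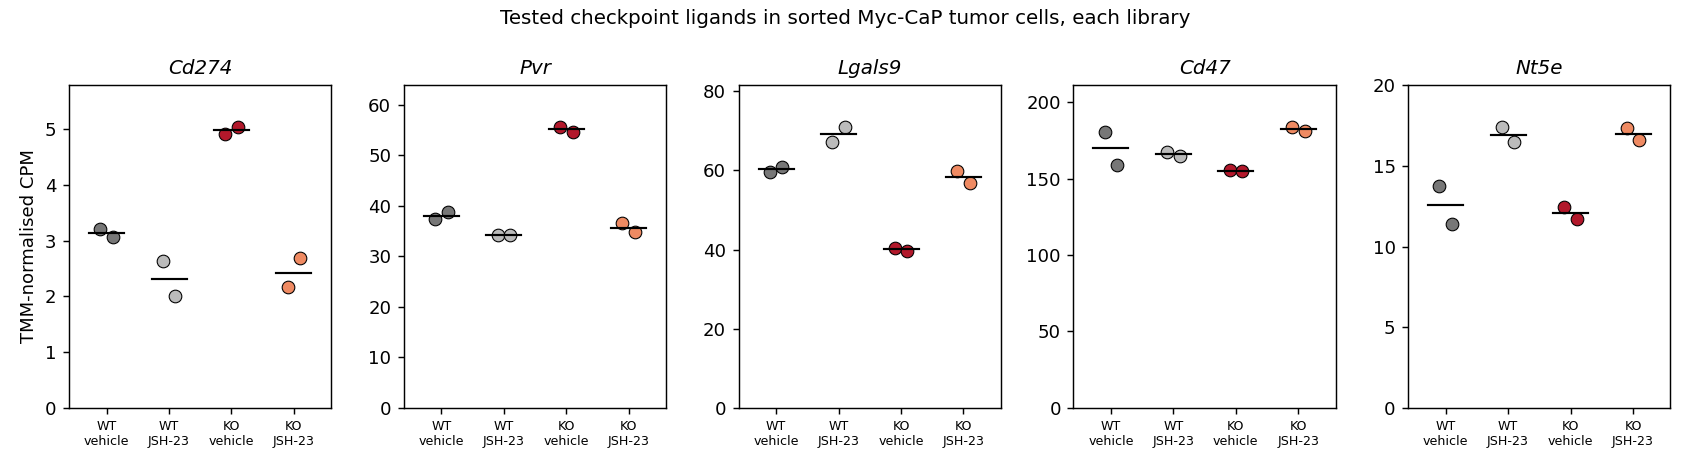
TMM-normalised CPM (vertical axis, starting at 0 in each panel) of the 5 ligands that passed the filter in every library. Each point is a library, and each horizontal line is the mean of the 2 libraries of a group. *Cd274* and *Pvr* were highest in KO tumors with vehicle, *Lgals9* was lowest there, *Nt5e* was higher in the JSH-23 groups, and *Cd47* varied least in proportion to its level.

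Among the B7 family, *Cd274* lies on chromosome 19 of GRCm38 (29362107 to 29388095, plus strand). Its level was 3.21 and 3.06 CPM in WT vehicle, 2.63 and 2.01 CPM in WT JSH-23, 4.92 and 5.04 CPM in KO vehicle, and 2.16 and 2.69 CPM in KO JSH-23, from 33 to 104 counts per library. The KO libraries with vehicle were above all 6 other libraries, and the JSH-23 libraries of the genotypes overlapped. The group means were 3.13 ± 0.105, 2.32 ± 0.437, 4.98 ± 0.0853 and 2.42 ± 0.371 CPM (SD, n = 2). *Cd274* was higher in KO than in WT tumors with vehicle. The log2 fold change was 0.67, with a standard error of 0.21 and an adjusted p of 0.00504 by the quasi-likelihood test of edgeR, adjusted over 13921 genes by the method of Benjamini and Hochberg. All adjusted p-values that follow are from that test unless another tool is named. JSH-23 lowered *Cd274* in KO tumors, where the log2 fold change was -1.03 (standard error 0.21, adjusted p = 1.65e-05). In WT tumors the log2 fold change with JSH-23 was -0.43 (standard error 0.24, adjusted p = 0.128), and with JSH-23 the genotypes differed by 0.07 (standard error 0.25, adjusted p = 0.853). The interaction, which is the JSH-23 effect in KO minus that in WT tumors, was -0.60 (standard error 0.32, adjusted p = 0.140), so a larger effect in KO than in WT tumors was not shown with edgeR. On log2(TPM + 1) it was -0.55 and passed with limma (adjusted p = 0.0262, in a range of 0.0262 to 0.473 over 16 alternatives), where the median of all genes was itself -0.17. With each library left out in turn, the change with JSH-23 in WT tumors ran from -0.64 without WT JSH-23 replicate 1 to -0.25 without WT JSH-23 replicate 2, the difference between genotypes with JSH-23 was 0.28 without the former, -0.11 without the latter, 0.21 without KO JSH-23 replicate 1 and -0.10 without KO JSH-23 replicate 2, and the interaction ran from -0.77 without WT JSH-23 replicate 2 to -0.39 without WT JSH-23 replicate 1. With DESeq2 the adjusted p for KO against WT with vehicle was 0.0685, at the upper end of a range from 0.00296 over 17 alternatives, and their log2 fold changes ran from 0.48 to 0.70. In bulk libraries, fewer cells of a kind and less RNA per cell cannot be told apart.

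*Cd274* overlaps *Plgrkt*, a gene on the opposite strand, and the study's methods state that reads were counted by strand. *Plgrkt* averaged 15.8, 19.1, 20.4 and 22.2 CPM in WT vehicle, WT JSH-23, KO vehicle and KO JSH-23, with a log2 fold change of 0.37 in KO against WT with vehicle (adjusted p = 0.000631), where *Cd274* was higher too, and of 0.125 with JSH-23 in KO tumors (adjusted p = 0.189), where *Cd274* was lower. A part of *Plgrkt* reads in the *Cd274* counts was not tested. It was named after its values had been seen.

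The other B7 genes were near or under the limit of 3 counts and did not pass the filter. *Pdcd1lg2*, which follows *Cd274* on the same strand of chromosome 19 (29410919 to 29472927), had 0 counts in all 8 libraries, which allows up to 0.183 CPM in the shallowest library. *Cd276* (chromosome 9, 58524300 to 58555033, minus strand) had between 0 and 2 counts per library and 5 in all. *Cd80* (chromosome 16, 38457430 to 38495958, plus strand) had between 0 and 3 counts and 8 in all. *Vtcn1* (chromosome 3, 100825459 to 100896922, plus strand) had between 1 and 5 counts and 20 in all, and was above 3 counts in WT JSH-23 replicate 1 and KO vehicle replicate 2. No fold change is given for these genes.

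*Pvr*, the CD155 gene, lies on chromosome 7 (19903578 to 19921143, minus strand). It was at 37.5 and 38.7 CPM in WT vehicle, 34.2 and 34.2 CPM in WT JSH-23, 55.6 and 54.7 CPM in KO vehicle, and 36.5 and 34.9 CPM in KO JSH-23. The KO libraries with vehicle stood above the other 6, which lay close together. The group means were 38.1 ± 0.873, 34.2 ± 0.00611, 55.2 ± 0.670 and 35.7 ± 1.18 CPM (SD, n = 2). *Pvr* was higher in KO than in WT tumors by a log2 fold change of 0.53 when vehicle was given (standard error 0.060, adjusted p = 8.61e-12). JSH-23 lowered it in KO tumors, with a change of -0.63 in log2 (standard error 0.059, adjusted p = 4.68e-15). JSH-23 lowered *Pvr* less in WT tumors (-0.16, standard error 0.067, adjusted p = 0.0409), and the interaction was -0.47 (standard error 0.090, adjusted p = 1.18e-05). With a biological coefficient of variation of 0.1 the adjusted p of the interaction was 0.206, in a range from 1.79e-07 over 16 alternatives. On the TPM scales the interaction was -0.65 and -0.67, which is beyond 1.5-fold, and relative to the median of all genes it was -0.49 and -0.47, which is not. The decrease in WT tumors missed the threshold under 8 of 17 alternatives. Among these, its adjusted p was 0.0693 without WT vehicle replicate 1, 0.179 without WT vehicle replicate 2, 0.114 without WT JSH-23 replicate 1 and 0.106 without WT JSH-23 replicate 2, in a range of 0.00622 to 0.494. With JSH-23 the genotypes differed by 0.06 in log2 after TMM scaling (adjusted p = 0.469), and by -0.12 on log2(TPM + 1) and -0.13 on log2(TPM + 0.1) (adjusted p = 0.0391 and 0.0375 by limma, in a range of 0.0375 to 0.870 over 17 alternatives). The median of all genes on those scales was itself -0.16 and -0.19, and relative to it *Pvr* was at 0.04 and 0.07, against 0.07 after TMM scaling. The change of sign came with the scale. Which scale is right was not tested, so the direction of this difference was not settled.

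*Lgals9*, the galectin-9 gene on chromosome 11 (78962979 to 78984924, minus strand), had the opposite pattern. Its level was 59.6 and 60.9 CPM in WT vehicle, 67.3 and 71.0 CPM in WT JSH-23, 40.4 and 39.7 CPM in KO vehicle, and 59.8 and 56.8 CPM in KO JSH-23. The KO libraries with vehicle were below all others, and the WT libraries with JSH-23 were above all others. The group means were 60.2 ± 0.975, 69.1 ± 2.59, 40.0 ± 0.506 and 58.3 ± 2.11 CPM (SD, n = 2). *Lgals9* fell by 0.59 on the log2 scale in KO against WT tumors with vehicle (standard error 0.056, adjusted p = 1.49e-14) and rose by 0.54 with JSH-23 in KO tumors (standard error 0.055, adjusted p = 9.24e-14). It also rose with JSH-23 in WT tumors (0.20, standard error 0.052, adjusted p = 0.000929), and the interaction was 0.34 (standard error 0.076, adjusted p = 0.000148). The interaction was 0.14 on log2(TPM + 1), with an adjusted p of 0.0700 by limma, and over 16 alternatives its adjusted p ran from 8.09e-05 to 0.400. KO was also below WT with JSH-23 (log2 fold change -0.25, standard error 0.051, adjusted p = 3.95e-05). With a biological coefficient of variation of 0.1, the adjusted p was 0.290 for this difference, in a range from 1.43e-07, and 0.354 for JSH-23 in WT tumors, in a range from 0.000610. On log2(TPM + 1) and log2(TPM + 0.1) the difference between genotypes with JSH-23 was -0.43 and -0.44, and the change with JSH-23 in KO tumors was 0.30 and 0.30.

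*Cd47*, on chromosome 16 (49851328 to 49912503, plus strand), varied little. Its level was 181 and 159 CPM in WT vehicle, 168 and 165 CPM in WT JSH-23, 155 and 155 CPM in KO vehicle, and 184 and 181 CPM in KO JSH-23. The KO libraries with JSH-23 were the highest and those with vehicle the lowest, and WT vehicle replicate 1 was close to the highest. *Cd47* was lower in KO than in WT tumors with vehicle (log2 fold change -0.13, standard error 0.035, adjusted p = 0.00105) and higher with JSH-23 (0.13 after TMM scaling and -0.06 on log2(TPM + 1), standard error 0.034 and adjusted p = 0.000710 for the former). JSH-23 raised it in KO tumors (0.23 after TMM scaling and -0.00 on log2(TPM + 1), standard error 0.034 and adjusted p = 7.67e-09 for the former), and the change in WT tumors was -0.03 (adjusted p = 0.460). The interaction was 0.27 (standard error 0.049, adjusted p = 6.29e-06), with an adjusted p between 1.32e-08 and 0.539 over 16 alternatives. Without WT vehicle replicate 2 the change with JSH-23 in WT tumors was -0.12, with an adjusted p of 0.00634 in a range up to 0.898, and without WT vehicle replicate 1 it was 0.07 (adjusted p = 0.139), so its direction was not settled. Without WT vehicle replicate 1 the difference between genotypes with vehicle was -0.04 (adjusted p = 0.488), in a range of 1.65e-06 to 0.593 over 17 alternatives, and without WT vehicle replicate 2 it was -0.22. The interaction was 0.18 without WT vehicle replicate 1 and 0.06 on log2(TPM + 1).

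The scale mattered for *Cd47*. In KO tumors it was at 54.3 and 54.1 TPM with vehicle and 54.7 and 53.5 TPM with JSH-23, so that on the TPM scale these libraries overlapped. On log2(TPM + 1) the median of all genes for JSH-23 in KO tumors was itself -0.20, on log2(TPM + 0.1) it was -0.25, and without TMM scaling it was -0.13, against -0.02 after TMM scaling. Relative to those medians the *Cd47* change with JSH-23 in KO tumors was 0.20, 0.25, 0.25 and 0.25. The shift of the median for KO against WT with JSH-23 was -0.09 without TMM scaling and -0.16 and -0.19 on the TPM scales, and for the interaction -0.11, -0.17 and -0.20. The share of higher genes among those past both thresholds moved with it. It was 35.0% for JSH-23 in KO tumors after TMM scaling, 22.5% without it, and 12.8% and 13.6% on the TPM scales. For KO against WT with JSH-23 it was 42.9%, 29.6%, 15.9% and 16.0%, and for the interaction 36.5%, 18.8%, 10.6% and 11.3%. Relative to the median gene, *Cd274* in KO tumors with JSH-23 was at -0.65, -0.97, -1.01 and -1.01, *Pvr* at -0.64, -0.61, -0.61 and -0.61, *Lgals9* at 0.50, 0.55, 0.56 and 0.56, and *Nt5e* at 0.43, 0.50, 0.51 and 0.51 on the 2 TPM scales, without and with TMM scaling. Within a gene these scales differ only by a factor per library and the pseudocount, and the median removes the factor, so the agreement of these values follows from the scales and tests nothing. The TPM values of the ligands given above and below carry the same shift.

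In the adenosine pathway, *Nt5e*, which encodes CD73, lies on chromosome 9 (88327609 to 88372089, plus strand). It was at 13.8 and 11.4 CPM in WT vehicle, 17.4 and 16.5 CPM in WT JSH-23, 12.5 and 11.7 CPM in KO vehicle, and 17.4 and 16.6 CPM in KO JSH-23. All 4 libraries with JSH-23 were above all 4 with vehicle, and the genotypes overlapped under each treatment. JSH-23 raised *Nt5e* by a log2 fold change of 0.49 in KO (standard error 0.10, adjusted p = 2.51e-05) and 0.43 in WT tumors (standard error 0.11, adjusted p = 0.000417). On log2(TPM + 1) the value in KO tumors was 0.23, with an adjusted p of 0.0630 by limma in a range of 7.52e-06 to 0.0630 over 17 alternatives. The genotypes differed by -0.06 with vehicle (adjusted p = 0.690) and by -0.00 with JSH-23 (adjusted p = 0.996), and the interaction was 0.06 (adjusted p = 0.799). Their directions were not settled. Without WT vehicle replicate 1 the difference with vehicle was 0.08 and the interaction -0.08, and without WT vehicle replicate 2 they were -0.19 and 0.19, and the difference with JSH-23 was 0.04 without WT JSH-23 replicate 1 and -0.04 without WT JSH-23 replicate 2. *Entpd1*, the CD39 gene that supplies the preceding step (chromosome 19, 40612366 to 40741602, plus strand), had between 0 and 5 counts per library and 25 in all, and did not pass the filter. It was above 3 counts in 5 libraries, and no fold change is given.

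**Figure D2:**
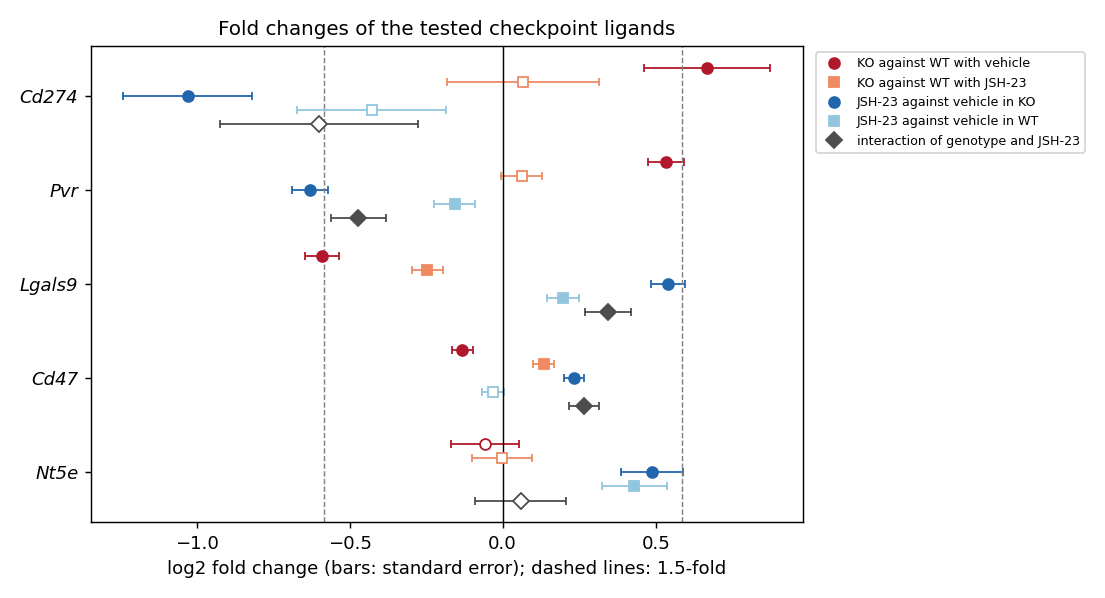
Log2 fold changes of the 5 ligands that passed the filter (horizontal axis) in the 4 comparisons and the interaction, with bars of 1 standard error. Filled symbols passed an adjusted p of 0.05 (edgeR), open symbols did not, and dashed lines mark 1.5-fold. *Cd274* and *Pvr* lie to the right for KO against WT with vehicle and to the left for JSH-23 in KO tumors, and *Lgals9* lies the other way. On log2(TPM + 1) the *Cd47* change with JSH-23 in KO tumors was -0.00.

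The counts of ligands past a threshold were read against all 13921 genes tested. With vehicle, 1 of 5 ligands tested in KO against WT tumors (*Cd274*) was higher at an adjusted p under 0.05 and 1.5-fold, where 7.48% of all genes were, and 1 (*Lgals9*) was lower, where 5.16% were. At an adjusted p under 0.05 alone, 2 were higher (25% of all genes) and 2 were lower (25.5%). *Lgals9* stood at the 1.5-fold limit, with a log2 fold change between -0.61 and -0.56 over 17 alternatives, and an adjusted p of 0.00135 or less. It was under 1.5-fold without WT vehicle replicate 2 (-0.57) and without KO vehicle replicate 2 (-0.58). The same held without TMM scaling (-0.565), on log2(TPM + 1) (-0.576) and on log2(TPM + 0.1) (-0.583). *Cd274* was not counted with DESeq2, which left 1 ligand. In KO tumors, JSH-23 lowered 2 of 5 ligands at 1.5-fold (*Cd274* and *Pvr*; 16.9% of all genes) and raised 0 (9.1%; also 0 at an unadjusted p and with DESeq2), and at an adjusted p alone it lowered the same 2 (34.4%) and raised the other 3 (33.4%). At the adjusted p alone, 9442 of the 13921 genes passed with JSH-23 in KO tumors in either direction, so passing it there was the common outcome for a gene of these tables. Whether the ligand counts exceed the background was not tested.

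In the other comparisons no ligand passed both thresholds with edgeR or DESeq2, and with limma the interaction of *Pvr* did on both TPM scales (adjusted p = 0.000248 and 0.000224). With edgeR, the only ligand beyond 1.5-fold in them was *Cd274*, by its interaction of -0.60, which did not pass the test. KO against WT tumors with JSH-23 gave 0 higher (3.74% of all genes) and 0 lower (4.97%) with edgeR, also 0 at an unadjusted p under 0.05 and 0 with DESeq2. At an adjusted p alone, 1 was higher (*Cd47*; 23.2%) and 1 lower (*Lgals9*; 23.8%). JSH-23 against vehicle in WT tumors gave 0 higher (5.55%) and 0 lower (10.2%) by the same tests, and at an adjusted p alone 2 higher (*Lgals9* and *Nt5e*; 28.6%) and 1 lower (*Pvr*; 27.2%). The interaction gave 0 higher (3.3%) and 0 lower (5.76%), again 0 at an unadjusted p and with DESeq2 and 1 with limma on each TPM scale, and at an adjusted p alone 2 positive values (*Cd47* and *Lgals9*; 20.5%) and 1 negative (*Pvr*; 17.9%). The comparisons share libraries: KO with vehicle enters both the comparison with WT and the one with JSH-23, so the opposite signs of *Cd274*, *Pvr* and *Lgals9* in them are not independent. The summed myeloid markers were lower with JSH-23 in both genotypes, and *Cd274* and *Pvr* were lower with it in KO tumors. *Cd68* and the endothelial marker *Vwf* were highest in KO vehicle, as *Cd274* and *Pvr* were. So was *Cx3cr1*, but it passed the filter only through the KO vehicle libraries, a selection that can favour this. The summed myeloid markers were not highest there, with means of 37.4 CPM in WT vehicle and 34.6 CPM in KO vehicle. *Lyz2* was lower in KO than in WT tumors with vehicle, as *Lgals9* was. Unlike *Lgals9*, *Lyz2* did not rise with JSH-23 in KO tumors (log2 fold change -0.13, adjusted p = 0.652). The counts of *Adgre1*, *Itgam*, *Csf1r*, *Fcer1g*, *Mpeg1*, *Laptm5* and *Mrc1* were also lower in KO vehicle than in WT vehicle. These genes passed the filter only through the WT vehicle libraries, a selection that can favour such a difference. *Pdgfra* was lowered by JSH-23 in KO tumors (log2 fold change -0.67, adjusted p = 1.83e-17), with -0.09 in WT tumors (adjusted p = 0.151) and an interaction of -0.575 (adjusted p = 5.15e-09), much as *Pvr* was. Unlike *Pvr*, it did not pass as higher in KO than in WT tumors with vehicle (0.09, adjusted p = 0.176). With JSH-23 it was lower in KO than in WT tumors (-0.49, adjusted p = 3.7e-11). The sum of the fibroblast and pericyte markers averaged 70.0 CPM in KO vehicle and 47.2 CPM in KO JSH-23. Most of this sum was *Pdgfra* itself, and no other tested gene of that list passed an adjusted p of 0.05 with JSH-23 in KO tumors. The part of the myeloid, endothelial and fibroblast markers in these results was not tested.

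The receptors of the ligands were also measured, although lymphocyte genes were near 0. Of 15 receptor genes, 6 passed the filter, among them *Sirpa* and *Thbs1* only through WT libraries in which they were high. No count or median over the 6 is therefore given. *Pdcd1*, *Cd226*, *Cd96* and the 4 adenosine receptor genes had 3 counts or fewer in every library. *Havcr2*, which encodes the galectin-9 receptor TIM-3, was at 16.9 and 16.6 CPM in WT vehicle, 15.8 and 16.5 CPM in WT JSH-23, 7.51 and 7.46 CPM in KO vehicle, and 6.22 and 8.06 CPM in KO JSH-23. All KO libraries were below all WT libraries, with a log2 fold change of -1.16 with vehicle (standard error 0.12, adjusted p = 1.82e-13) and -1.17 with JSH-23 (standard error 0.12, adjusted p = 2.18e-13). *Tigit*, which encodes a receptor of CD155, was at 353 and 345 CPM in WT vehicle, 315 and 303 CPM in WT JSH-23, 244.3 and 249.1 CPM in KO vehicle, and 178 and 187 CPM in KO JSH-23. It was therefore abundant in libraries in which *Cd3e* and *Ncr1* were at the floor. The tables give it a length of 24855 bases, and it overlaps *Zbtb20* on the opposite strand, named after its values had been seen, which averaged 317, 327, 211 and 238 CPM in WT vehicle, WT JSH-23, KO vehicle and KO JSH-23. Reads of these genes were not told apart here beyond the counting by strand. *Sirpa*, the CD47 receptor gene, named after its values had been seen, was at 1.43 and 0.823 CPM in WT vehicle and 1.17 and 0 CPM in WT JSH-23, and *Thbs1*, whose product thrombospondin binds CD47, was at 4.10 and 2.47 CPM and at 2.01 and 0.122 CPM. In the KO libraries each had 3 counts or fewer, and the WT JSH-23 libraries differed from each other in both genes. The myeloid markers *Adgre1*, *Itgam*, *Fcer1g* and *Laptm5* were likewise at 3 counts or fewer in the KO libraries and in WT JSH-23 replicate 2. *Csf1r* and *Mpeg1* had fewer counts in those libraries than in the other WT libraries. All these markers passed the filter only through the WT vehicle libraries, a selection that can favour such differences. The part of myeloid cells in the *Sirpa* and *Thbs1* values was not tested.

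Among 22 other inhibitory ligands, 13 passed the filter independently of any 1 group. With vehicle, 2 were higher (*Ido1* and *Ceacam1*) and 1 lower (*Lgals1*) in KO than in WT tumors at 1.5-fold, with a median of 0.03, where 6.75% of all genes were higher and 4.92% lower, with a median of -0.00. JSH-23 in KO tumors lowered 1 (*Ido1*) and raised 1 (*Lgals1*), where 15.6% of all genes were lowered and 9.27% raised. *Ido1*, the enzyme that turns tryptophan into kynurenine, was at 7.42 and 9.23 CPM in WT vehicle, 6.20 and 5.41 CPM in WT JSH-23, 14.1 and 14.0 CPM in KO vehicle, and 6.27 and 6.43 CPM in KO JSH-23. Its libraries were arranged as those of *Cd274*, with KO vehicle above all others. The log2 fold change was 0.76 in KO against WT with vehicle (standard error 0.12, adjusted p = 3.05e-07) and -1.15 with JSH-23 in KO (standard error 0.13, adjusted p = 1.35e-12), with an interaction of -0.63 (standard error 0.20, adjusted p = 0.00757). *Lgals1*, the galectin-1 gene, was at 949 and 941 CPM in WT vehicle, 1112 and 1103 CPM in WT JSH-23, 589.6 and 587 CPM in KO vehicle, and 1107 and 1139 CPM in KO JSH-23. It was lowest in KO vehicle, like *Lgals9*, and its interaction was 0.70 (standard error 0.023, adjusted p = 2.23e-37). *Ceacam1*, which encodes a ligand of TIM-3, averaged 6.80, 7.69, 11.5 and 9.58 CPM in WT vehicle, WT JSH-23, KO vehicle and KO JSH-23. *H2-T23*, the Qa-1 gene and a member of a family of similar class I genes whose reads may be exchanged, was at 9.28, 9.50, 7.77 and 5.31 CPM in the same order. In KO against WT with JSH-23, 2 genes of the list were lower (*H2-T23* and *Btn1a1*, the latter named only because the count is small), with a median of -0.13, where 4.8% of all genes were lower, and JSH-23 in WT tumors raised 1 (*Btn1a1*), with a median of 0.18, where 5.58% of all genes were raised. The interaction was negative at 1.5-fold for 3 (*Btn1a1*, *H2-T23* and *Ido1*) and positive for 1 (*Lgals1*), with a median of -0.23. It was negative for 5.81% of all genes and positive for 3.38%.

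Of 19 costimulatory and activating ligands, 18 were measured and 6 passed the filter independently of any 1 group. In KO against WT tumors with vehicle, 2 were higher (*Icam1* and *Ulbp1*), and JSH-23 in KO tumors lowered 3 (*Icam1*, *Tnfsf9* and *Tnfsf10*, the last named only because the count is small). Of all genes, 6.75% were higher in the former and 15.6% lower in the latter comparison. *Icam1*, the adhesion ligand of LFA-1 and a known NF-κB target, averaged 2.93, 0.804, 5.10 and 1.21 CPM in WT vehicle, WT JSH-23, KO vehicle and KO JSH-23. JSH-23 lowered it in both genotypes, by a log2 fold change of -2.05 in KO (standard error 0.26, adjusted p = 2.58e-10) and -1.84 in WT tumors (standard error 0.33, adjusted p = 2.07e-06), and the interaction was -0.22 (adjusted p = 0.754). *Ulbp1*, a ligand of the activating receptor NKG2D, averaged 6.32, 4.63, 11.7 and 8.17 CPM, and *Tnfsf9*, the 4-1BB ligand, 14.0, 10.7, 16.6 and 10.2 CPM in the same order. With JSH-23, 1 gene of the list was higher in KO than in WT tumors (*Ulbp1*), and in WT tumors JSH-23 lowered 2 (*Icam1* and *Tnfsf10*), where 3.62% of all genes were higher and 9.76% were lowered.

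The adenosine list held 24 genes, of which 14 passed the filter independently of any 1 group. JSH-23 in KO tumors raised 3 (*Ada*, *Adk* and *Entpd3*) and lowered 2 (*P2rx4* and *Slc28a3*), with a median of 0.11. Of all genes, 9.27% were raised and 15.6% lowered, so the lowered count was near the background. *Ada*, whose product deaminates adenosine, averaged 5.68, 14.8, 6.48 and 14.1 CPM in WT vehicle, WT JSH-23, KO vehicle and KO JSH-23, and thus was arranged by treatment as *Nt5e* was. Its log2 fold change with JSH-23 was 1.11 in KO (standard error 0.13, adjusted p = 4.23e-12) and 1.39 in WT tumors (standard error 0.13, adjusted p = 2.6e-14). *Adk*, the adenosine kinase gene, averaged 109, 122, 72.7 and 123 CPM and was lowest in KO vehicle. *P2rx4*, an ATP-gated channel gene, averaged 26.4, 29.3, 37.2 and 22.3 CPM and was highest there, and *Ampd3*, an AMP deaminase gene, averaged 328, 228, 196 and 159.9 CPM. *Entpd3*, which encodes an ectonucleotidase related to CD39, averaged 2.87, 6.35, 4.31 and 8.35 CPM, and the nucleoside transporter gene *Slc28a3* averaged 3.49, 1.07, 2.26 and 0.789 CPM. In KO against WT tumors with vehicle, 1 gene of the list was higher (*Entpd3*) and 1 lower (*Ampd3*), with a median of -0.18, where 6.75% and 4.92% of all genes were. JSH-23 in WT tumors raised 2 (*Ada* and *Entpd3*) and lowered 1 (*Slc28a3*), with a median of 0.11, where it raised 5.58% and lowered 9.76% of all genes.

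Of 35 regulators of PD-L1 and CD47, 34 passed the filter independently of any 1 group. In KO against WT tumors with vehicle, 2 were higher at 1.5-fold (*Myc* and *Socs3*, the latter named only because the count is small), with a median of 0.02, and JSH-23 in KO tumors lowered 6, among them *Ifngr2* and *Socs1*, and raised 2 (*Irf2*, named in the same way, and *Spop*), with a median of 0.11. Of all genes, 6.75% were higher in the former comparison, and 15.6% were lowered and 9.27% raised in the latter, so the counts of this list were near the background. *Myc*, the mouse counterpart of the transgene that this line carries, averaged 16.9, 12.9, 55.0 and 23.3 CPM in WT vehicle, WT JSH-23, KO vehicle and KO JSH-23. Its log2 fold change in KO against WT was 1.70 with vehicle (standard error 0.076, adjusted p = 9.44e-31), and it was -1.24 with JSH-23 in KO tumors (standard error 0.069, adjusted p = 8.81e-26). *Rela*, the gene of the p65 subunit itself, averaged 81.1, 58.9, 99.5 and 53.8 CPM and fell with JSH-23 in KO (log2 fold change -0.89, standard error 0.046, adjusted p = 1.52e-27) and in WT tumors (-0.46, standard error 0.049, adjusted p = 1.02e-12). *B3gnt3*, which glycosylates PD-L1, averaged 29.9, 17.7, 32.0 and 17.2 CPM, and *Spop*, an adaptor of the ubiquitin ligase that degrades PD-L1, 149, 185, 137 and 219 CPM. *B3gnt3* was lower with JSH-23 in both genotypes, and *Spop* was higher.

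The genes closest in pattern were sought by the root mean square distance of centred log2 CPM over the 8 libraries, in a set of 12242 genes that averaged 1 CPM or more. For *Cd274* they were *Nemp2*, *Gm31718* and *Tmem95*, at distances of 0.06, 0.08 and 0.09, where the spread of *Cd274* itself was 0.40. For *Pvr* they were *Sqstm1*, which encodes the autophagy receptor p62, and the amino acid transporter genes *Slc7a1* and *Slc1a4*, at 0.03, 0.04 and 0.05 (spread 0.27). *Sqstm1* averaged 612, 554, 860 and 563 CPM in WT vehicle, WT JSH-23, KO vehicle and KO JSH-23, which is the arrangement of *Pvr*. For *Lgals9* they were *Sfxn1*, *Mbtps1* and *Uqcrfs1* at 0.04, 0.05 and 0.05 (spread 0.29), the first a mitochondrial serine transporter gene and the last a gene of the respiratory chain. For *Nt5e* they were *Tma16*, *Sugp2* and *Iqcb1* at 0.04, 0.05 and 0.05 (spread 0.24), and for *Cd47* *Dock9*, *Rbx1* and *Alad* at 0.04 each (spread 0.10).

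Promoters from RefSeq (GRCm38.p6) were found for 9 of the 10 ligands, and *Pvr* had no entry. The 300-base windows were searched on both strands for GGNNTTTCC (κB-like), GAAANNGAA (ISRE-like, the interferon response element), TTCNNNGAA (GAS-like), TGANTCA (AP-1) and CACGTG (E-box), which were present in 5.82%, 8.56%, 8.3%, 7.81% and 7.15% of 32851 promoters. A κB-like match was present in the promoter of *Cd276*, 146 to 138 bases before the start, and AP-1 matches in those of *Cd80* and *Vtcn1*. Of the tested ligands, *Cd274* and *Lgals9* each had an ISRE-like match upstream of the start, and *Cd47* and *Nt5e* had none of the 5 motifs. The 250 bases before the start are printed for *Cd274* and *Lgals9*, which moved in opposite directions with JSH-23 in KO tumors and hold the same kind of match. They lie at chr19:29367188-29367437 (plus strand) and chr11:78984925-78985174 (minus strand), and capitals mark the ISRE-like letters, which lie on the strand opposite to the one printed. The RefSeq start of *Cd274* lies inside the span that the deposited tables give for the gene. A match describes the letters and not a bound site.
*Cd274*: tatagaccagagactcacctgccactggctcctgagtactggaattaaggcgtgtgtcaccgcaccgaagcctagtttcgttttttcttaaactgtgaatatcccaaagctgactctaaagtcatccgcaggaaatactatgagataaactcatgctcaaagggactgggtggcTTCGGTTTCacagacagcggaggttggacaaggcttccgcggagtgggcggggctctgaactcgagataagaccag
*Lgals9*: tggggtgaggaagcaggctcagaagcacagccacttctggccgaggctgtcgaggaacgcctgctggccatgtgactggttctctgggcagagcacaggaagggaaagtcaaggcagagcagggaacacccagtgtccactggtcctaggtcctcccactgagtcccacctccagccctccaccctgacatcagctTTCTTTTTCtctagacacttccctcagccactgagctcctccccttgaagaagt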

How the data were processed

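RNA-seq counts per gene were deposited for 8 libraries, 2 in each of 4 groups, and the authors made them by strand-specific counting with HTSeq-count. The study's methods name TopHat2 as the aligner to GRCm38 and the submitters' notes name HISAT2, and which of them made the files was not settled. The deposited TPM values were checked to be the counts per base of gene length, brought to the same total in each library. Counts were filtered with filterByExpr, which kept 13921 of 39089 genes, and scaled by TMM. A mean per group was fitted over all 8 libraries with edgeR 4.0.16 (quasi-likelihood test) in R 4.3.3, and 4 comparisons and their interaction were tested with Benjamini-Hochberg adjustment. A gene was counted as changed at an adjusted p under 0.05 and at least 1.5-fold. Alternatives were DESeq2 1.42.0, limma 3.58.1 on log2(TPM + 1) and log2(TPM + 0.1), other filters and scalings, a biological coefficient of variation of 0.1, a replicate block, only the groups compared, other criteria, and leaving out each library. The tests were tested on simulated data, the outcome of which is not reported here, and no result above rests on it. The ligands and the gene lists were chosen with earlier results of these data known. From each list, up to 6 genes past both thresholds in any comparison, with a mean of at least 1 CPM, were named in order of their largest change. Genes that needed the libraries of 1 particular group to pass the filter were left out of the list counts after the data had been seen. The values of some marker genes in these lists are not reported here.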

Additional observations from a re-analysis of the deposited data

Results flagged for a closer look

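The effect of JSH-23 differed between KO and WT tumors for 3 ligands in the fit reported, by the test of the interaction of genotype and JSH-23 on the log2 scale. The interaction was -0.47 for *Pvr*, which JSH-23 lowered more in KO tumors, and 0.34 for *Lgals9*, which it raised more in KO tumors. For *Cd47* the interaction was 0.27, and JSH-23 raised this gene in KO tumors after TMM scaling but not on the TPM scales. None of the 3 reached 1.5-fold with edgeR at an adjusted or an unadjusted p under 0.05, or with DESeq2, and *Pvr* passed both thresholds with limma on the TPM scales (-0.65 and -0.67), where the median of all genes was itself -0.17 and -0.20. The interactions of *Cd47* and *Lgals9* did not pass on either TPM scale, and those of all 3 did not pass with a biological coefficient of variation of 0.1. The adjusted p over 16 alternatives ran from 1.79e-07 to 0.206 for *Pvr*, from 8.09e-05 to 0.400 for *Lgals9* and from 1.32e-08 to 0.539 for *Cd47*. With 2 libraries in a group, a library far from the others of its group could not be tested for.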

How the results depend on the processing

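Of 420 fold changes of the 5 tested ligands under the alternatives, 365 kept their direction and their side of an adjusted p of 0.05, 27 kept their direction and no longer passed, 2 kept it and newly passed, 20 changed sign without passing before or after, and 6 reversed. Of those 6, the 4 of *Cd47* no longer passed and the 2 of *Pvr* newly passed. The reversed values were all on the TPM scale with limma: on log2(TPM + 1) and log2(TPM + 0.1), KO against WT with JSH-23 was -0.0554 and -0.0563 for *Cd47* and -0.12 and -0.13 for *Pvr*, and JSH-23 in KO was -0.00383 and -0.00389 for *Cd47*. Within a gene, TPM and CPM differ only by a factor per library, which moves all genes alike. The median of all genes on the 2 TPM scales was -0.16 and -0.19 in the former comparison and -0.20 and -0.25 in the latter. Relative to it *Cd47* was at 0.10 and 0.14, *Pvr* at 0.04 and 0.07, and *Cd47* with JSH-23 in KO at 0.20 and 0.25. These values have the direction of the fit reported, which follows from the scales and tests nothing. The 6 changes of sign came with the scale, and which scale is right was not tested. The directions of these *Cd47* and *Pvr* changes therefore depend on the scale chosen. The number of ligands past both thresholds in KO against WT with vehicle, 2 in the fit reported, was 1 without TMM scaling, 1 with at least 10 counts in every library, 0 on log2(TPM + 1), 1 on log2(TPM + 0.1) and 1 with DESeq2, and between 1 and 2 when each library was left out. For the interaction, 0 in the fit reported, it was 1 on each TPM scale. With no fold minimum the ligand counts were 4, 2, 5, 3 and 3 and the counts of all genes 7032, 6536, 9442, 7774 and 5346, for KO against WT with vehicle and with JSH-23, JSH-23 in KO and in WT, and the interaction. With a biological coefficient of variation of 0.1 the interaction gave 747 genes. With the replicate number as a block, all genes past both thresholds were 1750, 1200, 3612, 2187 and 1269, against 1760, 1212, 3625, 2197 and 1262 without the block, and the ligands 2, 0, 2, 0 and 0 as before. Leaving out each library gave 1589 to 1794, 1069 to 1202, 3386 to 3654, 1949 to 2218 and 1158 to 1242 genes. Leaving out a library leaves its group with 1 sample, which is assumed to vary like the others. The cause of the differences in these counts was not tested. *Pdcd1lg2*, *Cd276*, *Vtcn1*, *Cd80* and *Entpd1* did not pass the filter on low counts, and their fold changes without it are not reported.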

Other observations

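Of the summed TPM of the 10 ligands, *Lgals9* held 46.8% and 49.4% in the WT vehicle libraries, 51.1% and 52.9% with JSH-23, 35.9% and 35.7% in the KO vehicle libraries, and 46.4% and 45.8% with JSH-23, the largest share in each of the 8 libraries. *Pvr* held 16.2% and 17.2%, 14.2% and 14.0%, 27.2% and 27.0%, and 15.6% and 15.4% in the same order, so that its share was highest where that of *Lgals9* was lowest. The dendritic cell and endothelial markers had *Flt3*, *Xcr1*, *Clec9a* and *Emcn* at 3 counts or fewer in every library. Among the epithelial and prostate markers, 6 of 13 passed the filter independently of any 1 group. In KO against WT tumors 2 of these were higher at 1.5-fold with vehicle, where 6.75% of all such genes were, and 2 with JSH-23, where 3.62% were, *Krt8* and *Krt19* in both. JSH-23 lowered the same 2 in WT tumors, where 9.76% of all such genes were lowered. In KO tumors it lowered 0 and raised 0, where it lowered 15.6% and raised 9.27% of all such genes. The interaction was positive for 3 (*Hoxb13*, *Krt8* and *Krt19*), where it was for 3.38% of all such genes, and negative for 0, where it was for 5.81%. *Krt18* passed the filter only through the KO JSH-23 libraries. *Krt18*, the usual partner of *Krt8* in simple epithelia, averaged 0.746, 0.458, 0.732 and 1.41 TPM in WT vehicle, WT JSH-23, KO vehicle and KO JSH-23, where *Krt8* averaged 77.5, 44.9, 158 and 119.5 TPM.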
